A study of Bos taurus with 6 samples.

Results

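Prostaglandins are short-range lipid signals made from arachidonic acid. A phospholipase releases the acid from membrane lipids, a cyclooxygenase turns it into the intermediate prostaglandin H2, and terminal synthases convert this to prostaglandin E2, prostacyclin or other end products. The products act on G protein-coupled receptors and are removed by a dehydrogenase and reductases. In the ovary the pathway is known for its part in ovulation, when the LH surge induces cyclooxygenase-2 in granulosa cells (GC), and for the regression of the corpus luteum by prostaglandin F2α.

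The expression of 10 genes of this pathway was followed in bovine GC cultured at normal or high plating density. They are PLA2G4A for release, PTGS1, PTGS2, PTGES, PTGES2 and PTGIS for synthesis, HPGD for breakdown, and the receptors PTGER2, PTGER4 and PTGFR. All transcript clusters, the array's unit for a gene, whose symbol equals one of these names were taken, which gave 10 of the 26773 in the deposited table, 1 for each gene. RNA came from 3 cultures of normal density and 3 of high density, with 1 array per culture. Primary GC were aspirated from small to medium follicles of abattoir ovaries and pooled across animals whose cycle stage was not defined, and the methods count 6 GC preparations, 3 for each group, without stating whether a pool was plated at both densities. Every culture received the same serum-free medium with 2 μM androstenedione, 20 ng/ml FSH and 50 ng/ml of an IGF-1 analogue and was kept for 9 days, so that the groups differ in the number of cells plated per well and no culture was given LH.

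Values are log2 signals made by the authors with the RMA procedure. Group values are means ± SD over 3 cultures, and differences are given as log2 fold changes with their standard error (SE), positive where high density was higher. A transcript cluster is termed called when its fold change (FC) exceeds 1.5 in size, which is 0.58 on the log2 scale, and its p-value and Benjamini-Hochberg adjusted p-value from limma are below 0.05. The p-values measure only the spread between these cultures, and the number of arrays limits the precision. The 95th percentile of 82 reporter control rows, 4.62, is used as the background level, below which signals do not give a reliable size of change. Of the granulosa marker genes all 10 had a group mean above this level, CYP19A1 at normal density only and HSD17B1 at high density only. However, 5 of them, FSHR, CYP19A1, INHA, INHBA and FOXL2, fell at high density and HSD17B1 rose. In these bulk RNA samples a change in the share of cells of a type and a change in the RNA per cell cannot be told apart.

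Of the 10 genes, 4 rose at high density and 0 fell. The risen genes were the terminal synthases PTGES and PTGIS and the receptors PTGER2 and PTGFR. Over all transcript clusters 7.49% were called, which divides into 3.97% upward and 3.51% downward. The cyclooxygenases PTGS1 and PTGS2, the phospholipase PLA2G4A, the synthase PTGES2, the dehydrogenase HPGD and the receptor PTGER4 were not called. The median log2 fold change of the 10 genes was 0.24, against 0.02 over all transcript clusters. Signals of the high and normal density cultures did not overlap for 6 of the genes, 5 with higher and 1 with lower values at high density, whereas this was true of 37.3% of all transcript clusters, 17.8% with higher and 19.5% with lower values. For 4 genes, PTGS1, HPGD, PTGER2 and PTGER4, both group means were below the background level. Of the other 6 genes 50% were called, against 12.8% of all transcript clusters with a group mean above that level.

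**Figure D1:**
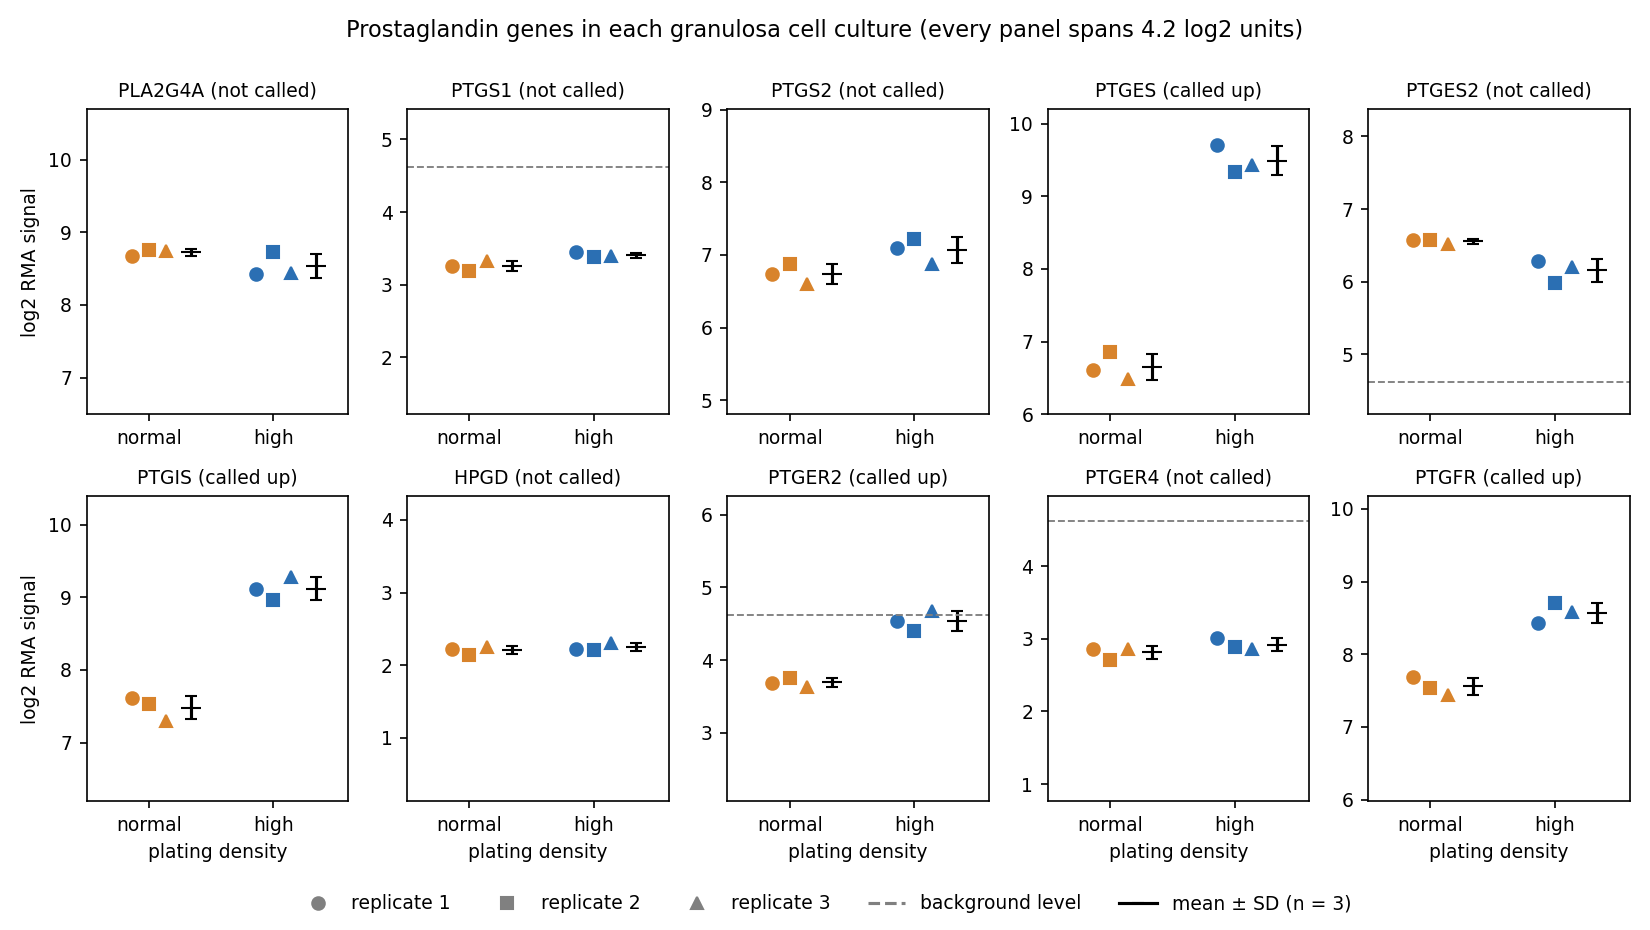
Log2 RMA signal of each prostaglandin gene in every culture by plating density, with a symbol per replicate number, the mean ± SD of 3 cultures beside the points, and the background level of 4.62 as a dashed line where it lies within the panel. PTGES, PTGIS, PTGER2 and PTGFR show separate groups with high density above, and PTGES2 lies lower at high density.

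PLA2G4A encodes cytosolic phospholipase A2, which frees arachidonic acid from membrane phospholipids. Its signals were 8.67, 8.76 and 8.75 in normal density replicates 1 to 3 and 8.43, 8.72 and 8.44 in the high density cultures. High density replicate 2 lay within the range of the normal density cultures, while the other two lay below it. The log2 fold change was −0.19 (SE 0.10, 95% confidence interval −0.42 to 0.03, limma's adjusted p = 0.216). Without high density replicate 2 it was −0.29, with an adjusted p of 0.0196 from limma, still below the FC threshold in size.

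The cyclooxygenases carry out the step at which arachidonic acid becomes prostaglandin H2, with PTGS1 as the constitutive and PTGS2 as the inducible form. PTGS2 gave signals of 6.74, 6.88 and 6.59 at normal density and 7.10, 7.22 and 6.87 at high density. The lowest high density value, that of replicate 3, fell just under the highest normal density value, so the groups overlapped by less than the spread within either of them. The log2 fold change of 0.33 (SE 0.11, limma's adjusted p = 0.0939) had a 95% confidence interval of 0.06 to 0.60, which reaches the FC threshold at its upper end. With the replicate number as a block limma's adjusted p was 0.0463 and with low signals filtered out 0.0469, and in every alternative tried the change stayed below the FC threshold.

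For PTGS1 the signals lay between 3.19 and 3.33 at normal density and between 3.38 and 3.44 at high density, all below the background level. Their log2 fold change was 0.15 (SE 0.07, limma's adjusted p = 0.202). Although its groups did not overlap, the gap between them was 0.05.

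PTGES, which encodes the inducible microsomal prostaglandin E synthase, the terminal enzyme of prostaglandin E2 synthesis that is usually coupled to PTGS2, had the largest change of the 10 genes. The signals were 6.61, 6.85 and 6.49 at normal density and 9.71, 9.33 and 9.43 at high density. Every high density culture stood far above every normal density culture, with a gap of 2.48 between the nearest pair, or 5.58-fold. Means were 6.65 ± 0.18 and 9.49 ± 0.20 (SD, n = 3), and the log2 fold change was 2.84 (SE 0.13, limma's adjusted p = 2.32e-05), a 7.17-fold rise. By the size of its rise PTGES held rank 19 among the 26773 transcript clusters. With each culture left out in turn the log2 fold change was between 2.73 and 2.94.

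PTGES2 encodes a second, membrane-associated prostaglandin E synthase that is regarded as constitutive. It gave 6.57, 6.58 and 6.52 at normal density and 6.29, 5.98 and 6.21 at high density. All high density values were lower, and high density replicate 2 was the lowest. The log2 fold change of −0.40 (SE 0.09, limma's adjusted p = 0.0238) passed the p-value thresholds and not the FC threshold, so PTGES2 was not called. By the methods' t-test, the study's analysis of variance for 2 groups run here on the same signals, its adjusted p was 0.0771, and with limma it was above 0.05 in 4 of the 6 fits that leave out a culture, at 0.0542 to 0.0833. An adjusted p below 0.05 at any FC was found for 19.1% of all transcript clusters, and for 5 of the 10 genes.

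PTGIS encodes prostacyclin synthase. Signals of 7.61, 7.53 and 7.30 at normal density stood against 9.12, 8.96 and 9.29 at high density. The groups were separated by 1.35, while the range within them was 0.31 at normal and 0.32 at high density. From means of 7.48 ± 0.16 and 9.12 ± 0.16 (SD, n = 3) followed a log2 fold change of 1.64 (SE 0.12, limma's adjusted p = 1.38e-04), a 3.12-fold rise. PTGIR, the prostacyclin receptor, was measured below the background level at both densities, with a log2 fold change of 0.04 (SE 0.13, limma's adjusted p = 0.875).

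Endothelial and smooth muscle cells are known sources of prostacyclin synthase. Of 10 endothelial markers 8 had both group means at or below the background level, PECAM1 and CDH5 among them. The summed endothelial signal, on the log2 scale, was between 6.99 and 7.01 at normal density and between 8.14 and 8.32 at high density. CLDN5 alone of this list was called, with 4.71 at normal and 7.53 at high density, and without it the summed signal was between 6.62 and 6.71 at normal and between 6.78 and 6.86 at high density. VWF changed by 0.31 (limma's adjusted p = 0.0572). Among 5 smooth muscle markers ACTA2 and TAGLN rose, and MYH11 fell with both means, 4.59 and 3.93, below the background level. The summed signal of the 5 markers moved from a range of 8.45 to 8.52 to one of 9.29 to 9.46. Of 8 theca markers INSL3 and BMP4 rose, BMP4 from a mean of 3.44, below the background level, to 5.21. LHCGR, which the study also follows in GC, fell with both means, 4.04 and 2.84, below that level. The summed theca signals were between 8.92 and 9.05 at normal and between 9.83 and 9.96 at high density. CYP17A1, the defining theca enzyme, was at 2.93 and 2.92. KRT8 and KRT18 rose among 8 markers of surface epithelium, whose summed signal went from between 7.51 and 7.77 to between 10.01 and 10.17, with EPCAM below the background level at both densities. The part of these moves in the changes of the prostaglandin genes was not tested.

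**Figure D2:**
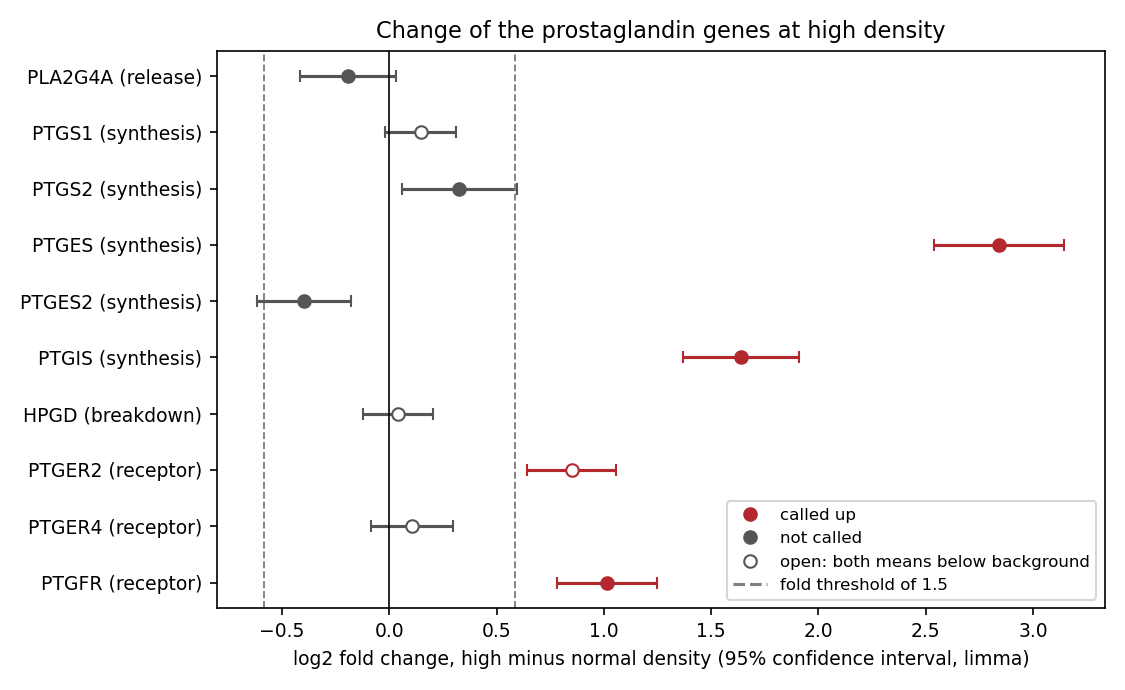
Log2 fold change of each prostaglandin gene, high minus normal density, with its 95% confidence interval from limma, and dashed lines at an FC of 1.5 in either direction. PTGES at 2.84, PTGIS at 1.64, PTGFR at 1.01 and PTGER2 at 0.85 lie beyond the upper line with their whole intervals, whereas the intervals of PTGS1, HPGD, PTGER4 and PLA2G4A include 0.

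The order of these changes among the synthases was examined by the difference of 2 log2 signals within each culture, which is free of an offset common to the array. PTGES minus PTGS2 changed by 2.52 (SE 0.16), so that PTGES rose 5.72-fold relative to PTGS2. PTGES minus PTGES2 changed by 3.24 (SE 0.11), or 9.45-fold, and PTGES minus PTGIS by 1.20 (SE 0.16), or 2.30-fold. In these 3 comparisons no high density culture had a difference within the range of the normal density cultures (two-sided exact permutation test, p = 0.1 for each, the smallest that 3 cultures against 3 allow, and 0.14 after Benjamini-Hochberg adjustment over 7 pairs). The increase of PTGES over PTGS2 was smallest in high density replicate 2, in which PTGES had its lowest and PTGS2 its highest value among the high density cultures. The other 4 of the 7 pairs each hold a gene below the background level and were not read.

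**Figure D3:**
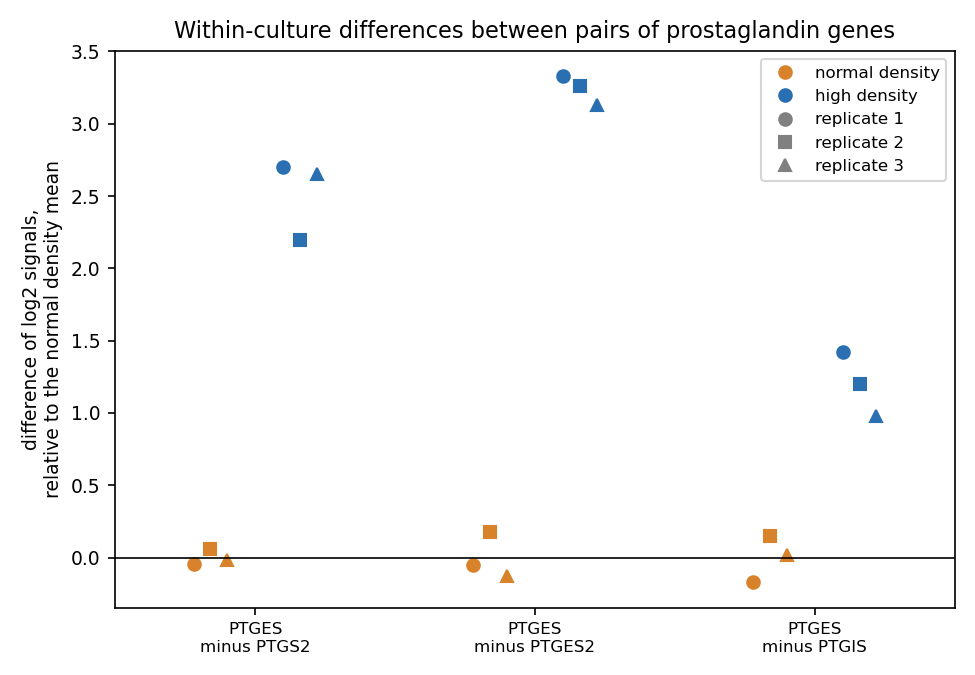
Difference of the log2 signals of 2 prostaglandin genes within each culture, given relative to the mean of the normal density cultures, for PTGES against PTGS2, PTGES2 and PTGIS. The high density cultures lie above the normal density cultures in each of these 3 pairs.

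HPGD encodes the dehydrogenase that begins the inactivation of prostaglandins. All of its signals, between 2.15 and 2.31, were far below the background level at both densities, and the change on the log2 scale was 0.04 (SE 0.07, limma's adjusted p = 0.752). No size of change can be drawn from such signals.

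PTGFR, the receptor of prostaglandin F2α, which signals through calcium, gave 7.69, 7.54 and 7.45 at normal density and 8.43, 8.71 and 8.58 at high density. All high density values exceeded all normal density values, with a gap of 0.74. Means of 7.56 ± 0.12 and 8.57 ± 0.14 (SD, n = 3) gave a log2 fold change of 1.01 (SE 0.10, limma's adjusted p = 5.80e-04), a 2.02-fold rise, at signals well above the background level. It was not called when limma's treat tested whether the change itself exceeds the FC threshold (adjusted p = 0.0731).

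PTGER2 and PTGER4 encode the prostaglandin E2 receptors EP2 and EP4, which raise cAMP. The signals of PTGER2 were 3.68, 3.76 and 3.63 at normal density and 4.54, 4.40 and 4.68 at high density. The groups were separated by 0.65, but of all cultures only high density replicate 3 exceeded the background level. PTGER2 was called at a log2 fold change of 0.85 (SE 0.09, limma's adjusted p = 7.71e-04), a 1.80-fold rise whose size is limited by these low signals, and it was not called by treat (adjusted p = 0.323). The signals of PTGER4 were between 2.71 and 2.87 at normal and between 2.86 and 3.02 at high density, with overlapping groups below the background level and a log2 fold change of 0.11 (SE 0.08, limma's adjusted p = 0.422).

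**Figure D4:**
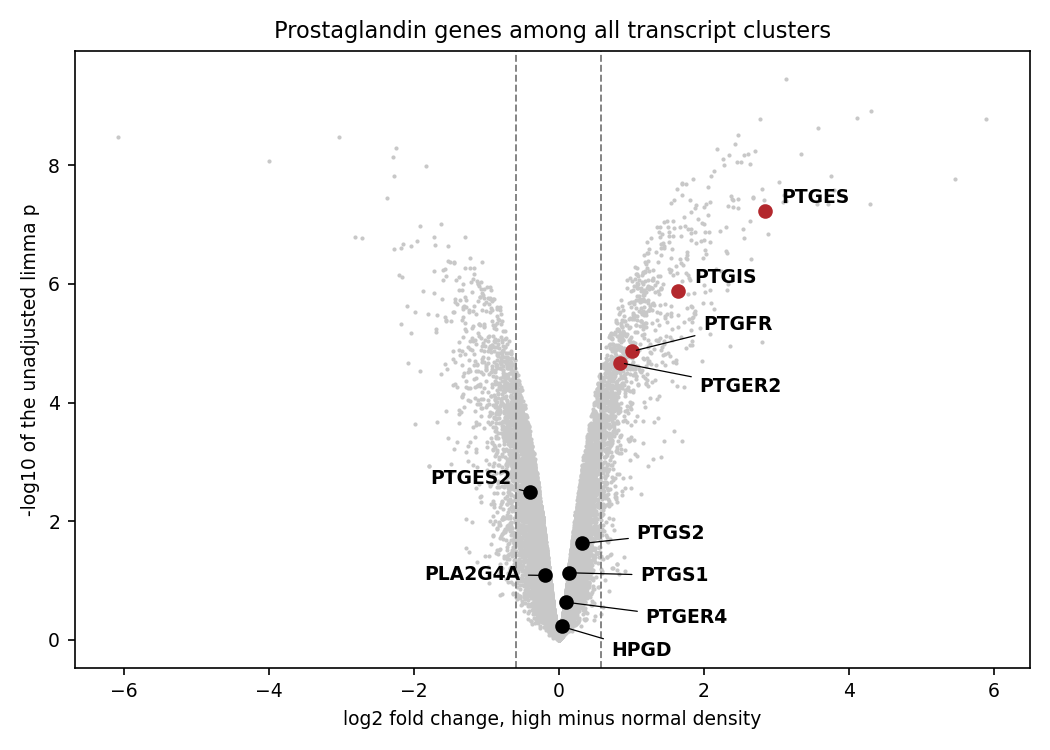
Log2 fold change, high minus normal density, against −log10 of the unadjusted limma p for all transcript clusters in grey, with the prostaglandin genes in red where called and in black where not, and dashed lines at an FC of 1.5 in size. PTGES and PTGIS are among the larger rises of the table, at ranks 19 and 139, and PTGFR and PTGER2 are at ranks 413 and 551.

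PTGS2 and PLA2G4A are neighbours on the same chromosome, with no protein-coding gene between them in the RefSeq annotation of the ARS-UCD2.0 assembly. Their changes differed in sign, 0.33 for PTGS2 and −0.19 for PLA2G4A, and neither was called. At high density replicate 2 had the highest value of the 3 cultures for both.

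Across the cultures of a density the 10 genes had a median SD of 0.08 at normal and 0.15 at high density, and 6 of them had the larger SD at high density. Over all transcript clusters these medians were 0.08 and 0.13, with the larger SD at high density in 68.4%. The ratio of the SD was most unequal for PTGES2, 5.36, and for PLA2G4A, 3.53. High density replicate 2 was the lowest of the high density cultures for 6 of the 10 genes and the highest for 3. The 4 calls were nevertheless made with any single culture left out.

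The genes outside the lists whose signals ran most like those of PTGES over the 6 cultures were sought by the Euclidean distance between centred log2 signals. The nearest was SEMA5A, a semaphorin, at a distance of 0.15, which moved from 6.70 ± 0.21 at normal density to 9.54 ± 0.14 at high density (SD, n = 3). It was followed by FAM107A at 0.28, with a log2 fold change of 2.64, and by EMP1 at 0.40, with 2.78. SEMA5A and FAM107A had the same order of the normal density cultures as PTGES, with replicate 2 the highest and replicate 3 the lowest. At high density replicate 2 was the lowest for PTGES and FAM107A, at 9.33 and 8.13, and replicate 3 for SEMA5A, at 9.44. The genes were chosen by these same signals, so a shared order is no separate evidence. This likeness is a description over 6 arrays that share the density contrast.

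The surrounding pathway was read from a list of 66 symbols, of which 62 were found, with 66 transcript clusters. Of these, 7 were called, 10.6% against 7.49% of all, with 6 up and 1 down, and 36 had both group means at or below the background level. Among transcript clusters with a group mean above that level 16.7% of the list and 12.8% of all were called. The median log2 fold change of the list was 0.09.

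Among the other genes listed under arachidonate release 1 of 21 transcript clusters was called. The group is a label of the list, and whether each gene frees arachidonic acid was not tested. PLA2G3, a secreted phospholipase A2, rose from 5.71, 5.74 and 5.45 at normal density to 6.83, 6.48 and 6.78 at high density, which is a log2 fold change of 1.06 (SE 0.12, limma's adjusted p = 0.00115). The cultures of the densities were separate, but treat did not call it (adjusted p = 0.111). The remaining 20 had changes between −0.34 and 0.58.

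The genes listed here under arachidonate supply are the desaturases FADS1 and FADS2, the elongases ELOVL2 and ELOVL5, the ligase ACSL4 and the acyltransferase LPCAT3. This grouping is a label of the list, and whether each gene adds to the arachidonic acid of membranes was not tested. Of these genes 0 of 6 were called. Signals were nevertheless higher in every high density culture than in any normal density culture for all 6, which was found for 17.8% of all transcript clusters in this direction. Log2 fold changes in this group ranged from 0.17 to 0.54. Limma's adjusted p was below 0.05 for 4 of the 6 genes and, at any FC, for 19.1% of all transcript clusters. The shares of 17.8% and 19.1% are over all transcript clusters, 51.2% of which had both group means at or below the background level. For ELOVL2 both means, 1.89 and 2.12, were below the background level and the gap between the groups was 0.03. FADS1 had the largest difference, with 10.02 ± 0.03 and 10.55 ± 0.05 (SD, n = 3), a log2 fold change of 0.54 (SE 0.07, limma's adjusted p = 0.00156).

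Of 10 transcript clusters for other prostanoid synthases 1 was called, that of HPGDS, the hematopoietic prostaglandin D synthase. Its log2 fold change was 1.23 (SE 0.13, limma's adjusted p = 7.82e-04), but the signals, 2.28 to 2.48 at normal and 3.31 to 3.76 at high density, were all below the background level, so the low-signal filter removed it. PTGES3, the cytosolic prostaglandin E synthase, had 8.67 ± 0.06 and 8.74 ± 0.30 (SD, n = 3) and was not called. Thus of the 3 prostaglandin E synthases only PTGES was called.

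HPGDS and LTC4S are known from mast cells, and PTGS1 from platelets. In a list of 7 platelet and mast cell markers 0 were called and 6 had both means at or below the background level, CPA3, MS4A2 and PF4 among them. KIT was the exception with 8.06 and 8.54, a log2 fold change of 0.48 (limma's adjusted p = 0.0027) that was below the FC threshold. Its signals were higher in every high density culture than in any normal density culture. The summed signal of the list was between 8.21 and 8.30 at normal and between 8.66 and 8.73 at high density. All 12 leukocyte markers, including PTPRC, had both means at or below the background level, and 0 were called. Their summed signals were 6.86 to 6.91 at normal and 6.86 to 7.05 at high density. The part of such cells in the changes of HPGDS, LTC4S and PTGS1 was not tested.

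Breakdown and transport held the single fall of the list. PTGR1, a reductase that acts on prostaglandins after the HPGD step and on leukotriene B4, had 8.22, 8.18 and 8.29 at normal and 7.20, 7.32 and 7.26 at high density. The values of each density lay close together and the groups were far apart, with a log2 fold change of −0.97 (SE 0.07, limma's adjusted p = 1.64e-04). PTGR2, the related reductase, had a log2 fold change of −0.42 (SE 0.06, limma's adjusted p = 0.00373) and did not reach the FC threshold.

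SLCO2A1, the transporter that takes prostaglandins into cells for breakdown, rose from 4.40, 4.53 and 4.44 to 5.81, 5.62 and 6.01. The normal density signals were below the background level and all high density signals above it. This was a log2 fold change of 1.36 (SE 0.11, limma's adjusted p = 2.19e-04). The 3 transcript clusters of ABCC4, an exporter of prostaglandins, disagreed in sign, with log2 fold changes of 0.19, −0.43 and −0.54, and were not called. Only the last of them had a group mean above the background level, that of normal density.

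Among 7 transcript clusters for other prostanoid receptors and a receptor regulator 1 was called. PTGER3, which encodes the EP3 receptor, had a log2 fold change of 0.82 (SE 0.10, limma's adjusted p = 0.00178), with means of 2.56 and 3.38, both below the background level, and was not called by treat (adjusted p = 0.776). PTGFRN, the regulator that binds the prostaglandin F2α receptor, had 8.21 ± 0.05 and 8.79 ± 0.10 (SD, n = 3) and a log2 fold change of 0.58 (SE 0.08, limma's adjusted p = 0.00228), which is 1.495-fold and just short of the FC threshold. It was called when replicate 2 of either density was left out, with array weights and after a second quantile normalization.

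In the group listed as lipoxygenase branch 2 of 13 transcript clusters were called. The group holds genes of leukotriene synthesis, other lipoxygenases and leukotriene receptors. LTC4S, the synthase of leukotriene C4, had 5.31, 5.20 and 5.07 at normal density and 7.24, 6.78 and 7.17 at high density, which is a log2 fold change of 1.87 (SE 0.13, limma's adjusted p = 1.43e-04). It was the largest rise of the list, with a clear gap between the densities. The leukotriene B4 receptor LTB4R rose by 0.85 (SE 0.14, limma's adjusted p = 0.00496) from a mean below the background level, 3.98, to one of 4.83, and was not called by the methods' t-test run here (adjusted p = 0.0506) or by treat (adjusted p = 1). ALOX5 and its activating protein ALOX5AP, which start leukotriene synthesis, had both means below the background level and were not called.

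**Figure D5:**
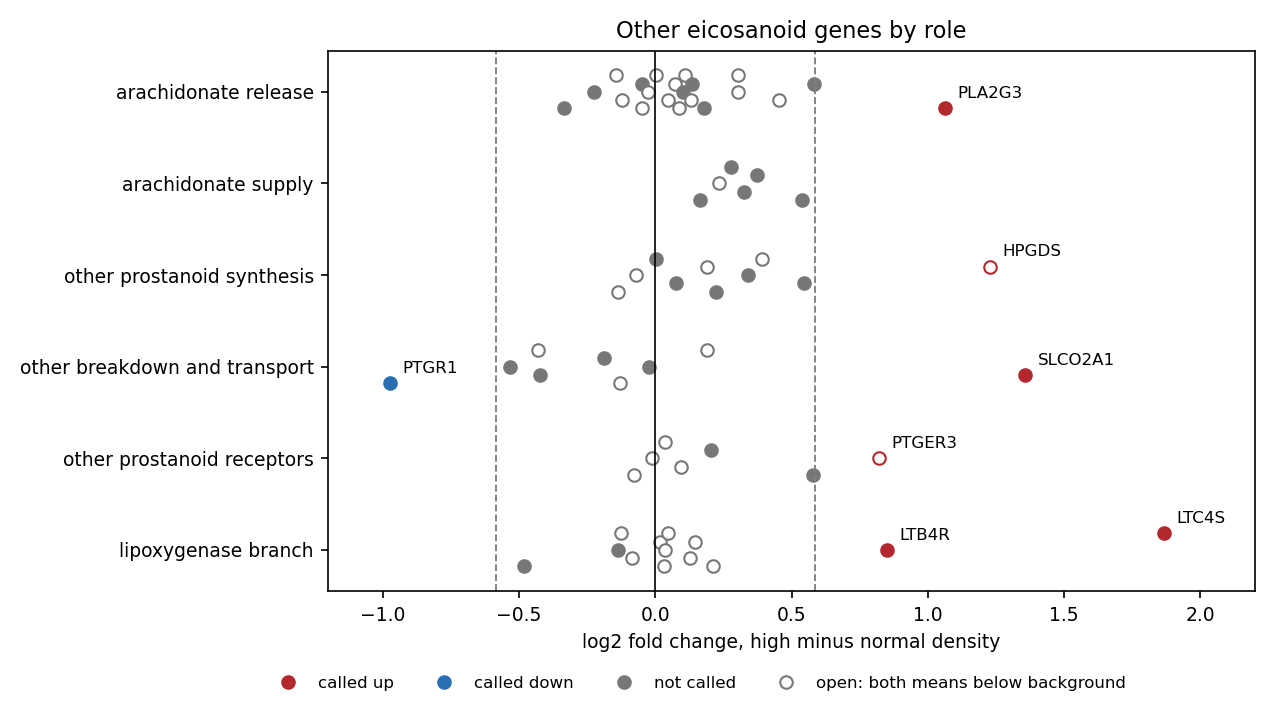
Log2 fold change, high minus normal density, of the 66 transcript clusters of other eicosanoid genes by role, with open symbols where both group means are at or below the background level and dashed lines at an FC of 1.5 in size. The called genes PLA2G3, HPGDS, SLCO2A1, PTGER3, LTB4R and LTC4S lie to the right and PTGR1 to the left, while the 6 genes of arachidonate supply, ELOVL2 with an open symbol, lie to the right of 0 within the FC threshold.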

How the data were processed

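The deposited table holds log2 signals per transcript cluster and culture from the Bovine Gene ST Array, which the authors made in Expression Console with RMA (background reduction, normalization, gene-level summary). The annotation version is not given in the sources used here. The 26773 transcript clusters were used as deposited, with 0 columns of other samples. Samples were grouped by the labels. High and normal density were compared with limma 3.58.1 in R 4.3.3 (lmFit, eBayes, no covariates), adjusted over all transcript clusters, with the thresholds of the methods. The study's analysis of variance, for 2 groups a t-test, served as an alternative and is called the methods' t-test. Pairs of genes were compared by exact permutation of the cultures. The limma fit and the t-test were tried on simulated data, and the exact permutation was not. RefSeq (ARS-UCD2.0) listed all 10 symbols, and 5 accessions matched. Plots were made in Python 3.11.15 (matplotlib 3.10.9). The genes and lists were chosen with earlier results of these data known. Named are the 10 genes, called list genes and the 3 profiles nearest to PTGES. Uncalled list genes, PTGR2, FADS1, PTGES3, PTGFRN, PTGIR, ABCC4, ALOX5 and ALOX5AP and the genes of arachidonate supply, and single markers were named after their values were seen.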

Additional observations from a re-analysis of the deposited data

How the results depend on the processing

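The alternatives were the methods' t-test, a robust eBayes with an intensity trend, weights per array, the replicate block, 2 other scalings, limma's treat, a low-signal filter and leaving out each culture. PTGES and PTGIS were called in all of them. When treat tested whether a change exceeds the FC threshold, 2 of the 10 prostaglandin genes, 4 of the pathway list and 529 of all transcript clusters were called, in place of 4, 7 and 2005. PTGFR and PTGER2 were then not called, with adjusted p-values of 0.0731 and 0.323. Of the list, PLA2G3, PTGER3 and LTB4R were lost (adjusted p = 0.111, 0.776 and 1). The filter on low signals removed PTGER2, PTGS1, PTGER4 and HPGD, and of the list HPGDS and PTGER3 among others. Called were 3 of the 6 genes that were kept and 5 of the 30 transcript clusters kept from the list. Over all, 1695 of the 13077 transcript clusters kept were called. By the methods' t-test 4 of the 10, 6 of the list and 1611 of all transcript clusters were called. LTB4R was not called by this t-test (adjusted p = 0.0506). HPGD reversed to −0.0049 when arrays were shifted to a common median. With each culture left out in turn the counts were 4 for the 10 genes, 8 to 9 for the list, to which PLA2G7, PTGFRN or FAM213B were added, 1848 to 2434 for all, and 5 to 6 for pairs of genes without overlap, where 4 of the 7 pairs include a gene below the background level. Same-numbered cultures had correlations of their deviations from the group means of 0.05, −0.05 and −0.04. At both densities only replicate 1 correlated best with its own number. The highest correlation, 0.09, was that of normal density replicate 3 with high density replicate 2. Whether same-numbered cultures shared a cell pool cannot be decided from these values, because each deviation is taken from a mean of only 3 cultures. The replicate block gave 4, 7 and 2020 calls. Signals below the background level limit PTGS1, HPGD, PTGER2 and PTGER4.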
